A study of Mus musculus with 12 samples.

Results

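Mammary tumours of the YB strain were compared with those of the NYPD strain. The 4 pools were taken by their titles, 2 named YB and 2 named NYPD, out of 12 tumour pools from 6 mouse strains. Both strains express an activated neu (ErbB2) receptor, the NDL form, from the MMTV promoter in female mice. In the NYPD receptor the tyrosine autophosphorylation sites of the tail are removed, and the YB receptor carries 1 of these sites on the NYPD background. For each strain, 10 tumours of mice bearing them for 6 weeks gave RNA, combined into 2 pools of 5 tumours. Each pool and a common standard, Universal Mouse Reference RNA, which mixes many mouse cell types, were hybridised to 2 Agilent two-colour arrays with the dyes exchanged. The other 8 pools came from the parental strain NDL2-5, written NDL25 in the names, and from the single-site strains YC, YD and YE, whose receptors carry other sites on the NYPD background. The labels leave the mice's age blank and do not say whether a strain is 1 transgenic line or whether the tumours of a pool came from separate mice. The p-values below therefore measure the spread between pools of tumours. The comparison asks what differs in tumours when 1 site is restored to a receptor without them.

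ErbB2 is a receptor tyrosine kinase that signals by phosphorylating tyrosines in its own tail, where adaptor proteins then dock. The YB site is known as a docking site for Grb2, which brings the exchange factor Sos to Ras and so feeds the ERK pathway. The MMTV promoter drives transgenes mainly in mammary epithelium, and is also known to be active in salivary gland. Whole tumours were profiled, so each value mixes epithelium, stroma, vessels and immune cells, and fewer cells of a type cannot be told apart from less RNA per cell.

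Each value is a log2 ratio of tumour over reference for 1 pool, so that 0 is the level of the reference mixture and a difference of 1 is a factor of 2. It is the mean of the pool's 2 arrays, or the value of 1 array where the spot on the other was left out as an outlier. On the 8 YB and NYPD arrays the tumour channel had medians of 462.2 to 700.1 intensity units, the local background medians of 39 to 45, and 58 to 325 spots per array were saturated. Image-analysis records place the YB arrays in the same session as those of NDL25 and part of those of YC. The NYPD arrays were in a session of their own, so for NYPD the strain and the session cannot be told apart. Both strains had markers of luminal epithelium, and whether these came from mammary or other glandular epithelium was not tested. The summed log2 ratio of Krt8, Krt18, Krt19, Epcam and Cdh1 was 12.1 and 11.4 in the YB pools and 11.4 and 11.1 in the NYPD pools, and 0 of these 5 markers passed the test.

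YB tumours differed from NYPD tumours mainly by genes that were higher in YB. Of 28691 genes tested, 1463 (5.1%) passed an adjusted p of 0.05 in the limma fit, 1153 higher (4.02%) and 310 lower (1.08%) in YB, and 5739 had an unadjusted p under 0.05. By 2-fold or more, 133 were higher (0.464%) and 28 lower (0.0976%), and the median difference over all genes was 0.00197. Among the 1153 higher genes both YB pools lay outside the range of the other 10 pools for 1042 (90.4%) and both NYPD pools for 239 (20.7%). Among the 310 lower genes it was YB for 80 (25.8%) and NYPD for 211 (68.1%). Over all genes tested, both YB pools lay above the other 10 pools in 9.45% and below them in 4.36%, and both NYPD pools above in 4.21% and below in 4.83%. Against the mean of NDL25, YC, YD and YE, 6.84% of all genes passed for YB and 1.5% for NYPD. The shares of called genes are a description, since a call already fixes the order of the YB and NYPD pools. The count of 1463 fell by more than 1.5 times when 1 pool was left out: to 397 without NYPD pool 2, 879 without NYPD pool 1, 888 without YB pool 2, and to 907, 786, 819 and 949 when the pool left out was of NDL25, YC, YD and YE, either pool giving the same count. It was 1818 without YB pool 1, and 243 genes, 225 of them higher, passed in all 12 such fits. For YB minus NYPD, leaving out pool 1 or pool 2 of NDL25, YC, YD or YE is the same fit, so a tally out of 12 counts these fits 2 times. Only leaving out a YB or NYPD pool changes the difference itself. A fit of the 4 YB and NYPD pools alone passed 4 genes, with 3418 at an unadjusted p under 0.05.

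**Figure D1:**
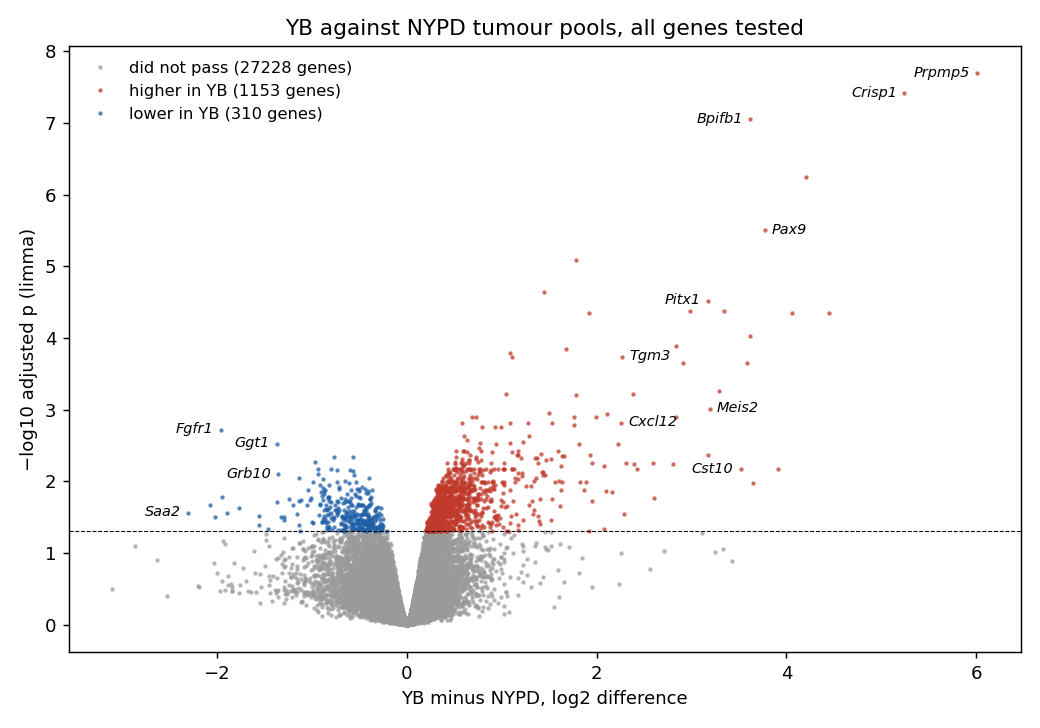
Every gene tested, by its YB minus NYPD log2 difference (horizontal) and the −log10 of its adjusted p from limma (vertical); the dashed line is an adjusted p of 0.05. Of the genes past it, 1153 are higher in YB and 310 lower, and Prpmp5, Crisp1 and Bpifb1 stand at the top right.

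The 15 largest rises were led by secreted proteins of salivary glands and by transcription factors of oral and foregut development. In all 15 both YB pools lay above the other 10 pools. The rule for naming them required the strains not to overlap, and over all genes both YB pools lay above both NYPD pools in 25.4% and below them in 20.2%. Prpmp5, a proline-rich protein of saliva, had log2 ratios of 5.98 and 6.1 in the YB pools and 0.02 and 0.04 in the NYPD pools. In NYPD both of its channels read low, at 6.5 and 6.56 log2 intensity units for tumour and 6.49 and 6.53 for reference. The ratios of the 8 pools of the other strains ran from 0.03 to 0.45, so Prpmp5 stood apart in YB and had a ratio near 0 everywhere else. The difference was 6.01 ± 0.0693 (SE, n = 2 pools per strain), or 64.4-fold, with a limma adjusted p of 2.03e-08. Crisp1, a cysteine-rich secretory protein, was at 5.2 and 5.37 in YB and 0.1 and -0.01 in NYPD, a difference of 5.24 ± 0.0716 (37.7-fold, adjusted p = 3.8e-08). Bpifb1, a secreted lipid-binding protein of the upper airway and mouth, was at 3.64 and 3.63 against 0.07 and -0.05, a difference of 3.62 ± 0.0582 (12.3-fold, adjusted p = 8.9e-08). None of the 3 overlapped between strains, and each passed in 12 of 12 fits that left out 1 pool. Prpmp5, Crisp1 and Bpifb1 were at 0.1, -0.02 and 0.02 in NDL25 pool 1 and at 0.08, 0.02 and -0.08 in NDL25 pool 2, whose arrays were read in the YB session.

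**Figure D2:**
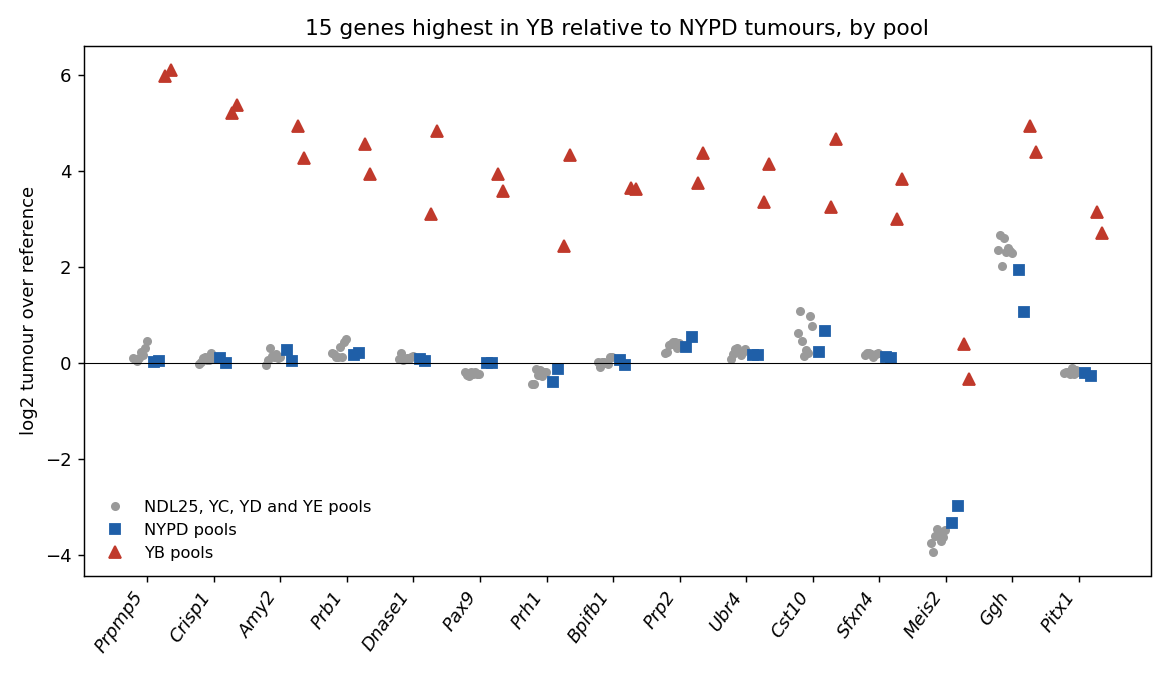
The log2 tumour over reference ratio (vertical) of the 15 largest rises (horizontal) in each of the 12 pools: red triangles are the 2 YB pools, blue squares the 2 NYPD pools and grey points the 8 other pools. The YB pools lie above every other pool in all 15 genes; for Meis2 the 10 other pools lie far below the reference, from -3.93 to -2.98.

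The proline-rich protein genes rose together. These genes encode abundant proteins of saliva that bind tannins and minerals. Prb1 was at 4.56 and 3.93 in the YB pools and 0.16 and 0.2 in the NYPD pools, a difference of 4.06 ± 0.176 (16.7-fold, adjusted p = 4.42e-05). Prp2 was at 3.74 and 4.37 against 0.34 and 0.53, a difference of 3.62 ± 0.175 (12.3-fold, adjusted p = 9.39e-05). Prh1 was at 2.44 and 4.34 against -0.4 and -0.13, a difference of 3.65 ± 0.491 (12.6-fold, adjusted p = 0.0104). Its 2 YB pools lay further apart than those of Prb1 or Prp2, and it lost its call without NYPD pool 2 (adjusted p = 0.0504). In the RefSeq annotation of GRCm38.p6 Prb1 and Prpmp5 are neighbours on chromosome 6 with 0 protein-coding genes between them, and so are Prh1 and Prp2. The genes are close copies and probe sequences were not used here, so how far each probe reads its neighbour was not tested.

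The 250 bases before the annotated start of these 4 genes are shown because they rose together and come in near-identical pairs. They are given 5′ to 3′ on the gene's strand, from RefSeq's GRCm38.p6, with each TATAAA in capitals. Prpmp5 lies at chr6:132314744-132314993 and Prb1 at chr6:132210522-132210771, both on the minus strand, and Prh1 at chr6:132569592-132569841 and Prp2 at chr6:132595661-132595910, both on the plus strand.
Prpmp5: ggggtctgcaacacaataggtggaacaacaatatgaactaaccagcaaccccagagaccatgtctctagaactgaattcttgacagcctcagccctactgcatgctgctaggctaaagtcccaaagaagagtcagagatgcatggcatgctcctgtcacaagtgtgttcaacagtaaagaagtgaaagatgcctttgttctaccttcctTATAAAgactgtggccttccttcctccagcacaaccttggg
Prb1: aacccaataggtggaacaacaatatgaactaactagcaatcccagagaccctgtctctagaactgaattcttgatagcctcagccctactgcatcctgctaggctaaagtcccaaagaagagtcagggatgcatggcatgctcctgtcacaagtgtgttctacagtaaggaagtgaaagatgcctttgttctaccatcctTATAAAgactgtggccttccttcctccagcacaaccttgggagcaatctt
Prh1: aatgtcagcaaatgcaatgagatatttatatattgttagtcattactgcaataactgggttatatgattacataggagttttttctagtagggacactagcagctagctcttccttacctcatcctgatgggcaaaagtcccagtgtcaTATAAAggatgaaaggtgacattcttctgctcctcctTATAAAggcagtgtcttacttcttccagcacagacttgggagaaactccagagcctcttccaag
Prp2: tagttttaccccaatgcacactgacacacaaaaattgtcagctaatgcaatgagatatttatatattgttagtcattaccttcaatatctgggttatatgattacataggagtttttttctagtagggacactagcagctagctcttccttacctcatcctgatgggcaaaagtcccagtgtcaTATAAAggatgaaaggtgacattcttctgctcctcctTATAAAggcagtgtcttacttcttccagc

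Prpmp5 and Prb1 were identical at 231 of 241 aligned bases (95.9%), and Prh1 and Prp2 at 211 of 215 (98.1%). Across the pairs the identity was 71.2% to 74.7% of the bases aligned. The pair Prpmp5 and Prb1 holds 1 TATAAA, starting 41 and 50 bases before the start, and the pair Prh1 and Prp2 holds 2, the last starting 64 and 29 bases before it. On either strand TATAAA was in 12.4% of the 32851 promoters of this length. It was in 8 of 14 promoters (57.1%) found for 12 of the 15 largest rises and in 4 of 20 (20%) found for 14 of the 15 largest falls. TAATCC, the letters that Pitx1 is known to bind, was in none of the 4 windows on either strand and in 6.25% of all promoters. A match is a run of letters, not a shown site, and a missing match says nothing about a factor.

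Other secreted enzymes and inhibitors of saliva rose as well. Amy2, named for pancreatic amylase, was at 4.93 and 4.26 in YB and 0.26 and 0.03 in NYPD, a difference of 4.45 ± 0.193 (21.9-fold, adjusted p = 4.42e-05). Its YB values came from 3 of the 4 YB arrays, so 1 YB pool rests on 1 array without a dye swap. Amy1, the salivary amylase, was at 2.87 and 3.38 against 0.39 and 0.03, a difference of 2.91 ± 0.166 (adjusted p = 0.000225). The amylase genes are near-identical, so which of them the probes read is uncertain. Dnase1, a secreted nuclease, was at 3.1 and 4.83 against 0.09 and 0.03 (3.91 ± 0.442, adjusted p = 0.00662). Cst10, a cystatin that inhibits cysteine proteases, was at 3.25 and 4.67 against 0.22 and 0.67 (3.52 ± 0.411, adjusted p = 0.00679). Its spots were saturated on all 4 YB arrays, so this ratio and its SE are limited by the scanner's range, and its 2 channels are described below. Dnase1 was saturated on 2 of the 4. Both had YB pools that differed from each other by more than those of Amy2, yet neither overlapped with NYPD, and both passed in 12 of 12 fits that left out 1 pool. Sbp, a spermine-binding secreted protein, was at 3.24 and 2.8 against -0.01 and 0.08 (2.98 ± 0.124, adjusted p = 4.19e-05), while a second Sbp probe differed by -0.0124. Lpo, the lactoperoxidase of saliva and milk, was at 1.52 and 1.11 against 0.06 and 0.12 (1.22 ± 0.148, adjusted p = 0.00767). Crisp3, picked out here after its values were seen because it neighbours Crisp1, was at 3.23 and 2.41 against 0.01 and -0.06 (2.84 ± 0.215, adjusted p = 0.00127).

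Of 29 tested genes in a list of salivary secreted proteins, 12 were higher and 0 lower in YB, beside 4.02% and 1.08% of all genes. The median difference of the list was 0.713 beside 0.00197 over all genes. The list was chosen with earlier results of these data known. The 12 ranged from 1.22 to 6.01 and the 17 others from -0.463 to 3.33. Under the alternatives 3 to 15 were higher and 0 lower, with 3 in the fit of the YB and NYPD pools alone and 8 in a fit of the authors' deposited log ratios. The members that did not pass fell into groups. Pip, the prolactin-induced protein, was at 2.09 and 5.06 in YB against 0.25 and 0.24 (adjusted p = 0.0888), and Mucl2, a secreted mucin-like protein, at 1.11 and 4.65 against 0.15 and 0.49 (adjusted p = 0.169). In both genes YB pool 2 was the higher. Smr3a, a submandibular gland protein, was at 1.4 and 0.04 against 0.17 and 0, and Bpifa2, the parotid secretory protein, at 1.46 and 0.2 against 0.06 and 0.26. In these genes YB pool 1 was the higher and YB pool 2 lay among the other pools. Klk1b1, Smr2 and Bpifa1 differed by 0.0348, -0.00832 and -0.045. Aqp5, the water channel of acinar cells, was at 3.6 and 3.72 in YB and 3.65 and 3.5 in NYPD, and Car6, the secreted carbonic anhydrase, at 1.34 and 2.9 against 2.02 and 2.02. The summed log2 ratio of the 8 salivary acinar markers, Amy1, Prpmp5, Prb1, Smr3a, Bpifa2, Aqp5, Mucl2 and Car6, was 22.3 and 24.9 in the YB pools and 6.62 and 6.54 in the NYPD pools, and 3 of the 8 passed. Those that passed were Amy1, Prpmp5 and Prb1. Prpmp5 and Prb1 are among the largest rises already named, so the sum is not a separate result. Whether salivary tissue in the samples takes part in these values was not tested.

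The reference channel, which holds the same RNA on every array, read higher on the YB arrays for part of the largest rises. For 7 of the 15 largest rises (46.7%) it was higher by a log2 of 1 or more than on the NYPD arrays, against 83 of 28691 genes (0.289%) in all and 0 of the 15 largest falls. Prb1 read 10.74 and 11.88 log2 intensity units in the reference channel of the YB pools and 6.49 and 6.52 in that of the NYPD pools. Its tumour channel read 15.3 and 15.8 against 6.65 and 6.72, a difference of 8.86 where the ratio differed by 4.06. For Prpmp5 the tumour channel differed by 8.14 and the reference channel by 2.13. Other rises with a bright tumour channel in YB had smaller reference differences. In NYPD pool 1 the reference of Ubr4, Ggh and Prh1 was at 11.72, 10.45 and 10.89, where that of Prpmp5 and Prb1 was at 6.49. Dnase1, at 12.34 and 15.8 in the YB tumour channel, had a reference of 9.24 and 10.97 against 9.11 and 9.3. Ubr4 read 15.26 and 15.48 in the YB tumour channel and its reference differed by -0.16, and Ggh read 15.65 and 15.01 with a reference difference of 0.27. Prh1, at 13.4 and 15.52, had a reference difference of 0.17, and the dimmer Pax9 and Pitx1 had 0.2 and 0.07. Where the reference channel read higher, the ratio is smaller than the difference in the tumour channel. The YB pools of Bpifb1 had like ratios but different intensities, with tumour signals of 15.63 and 12.57 and reference signals of 11.99 and 8.94. Spots of 8 of the 15 rises were saturated on 1 or more YB arrays, and those of Cst10 on all 4. The tumour channel of Cst10 read 118-fold higher in YB, taking saturated spots at their value after loess and Aquantile scaling. Its reference channel also differed by 3.37, and its ratio by 11.4-fold, so the 118-fold is not a bound on the difference between strains. Some smaller calls named below differed little in the tumour channel. Spry1, Lor, Plin1 and Fzd4 differed there by -0.04, -0.04, 0 and 0.07. Their reference differences were -0.63, -0.73, -0.38 and -0.38. Hpx differed by -0.24 and -0.47, and Kif15, a named fall, by -0.79 and 0.45. Myc, Ms4a1, Robo4 and Emcn differed in the tumour channel by -0.48, -0.51, 0.5 and 0.42. Their reference differences were 0.35, 0.35, -0.26 and -0.3, so part of their ratio differences lay in the reference channel. Asns and Cxcl12 differed mainly in the tumour channel, by 1.89 and 2.48, with reference differences of 0.06 and 0.23. The cause of the reference readings was not tested.

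**Figure D3:**
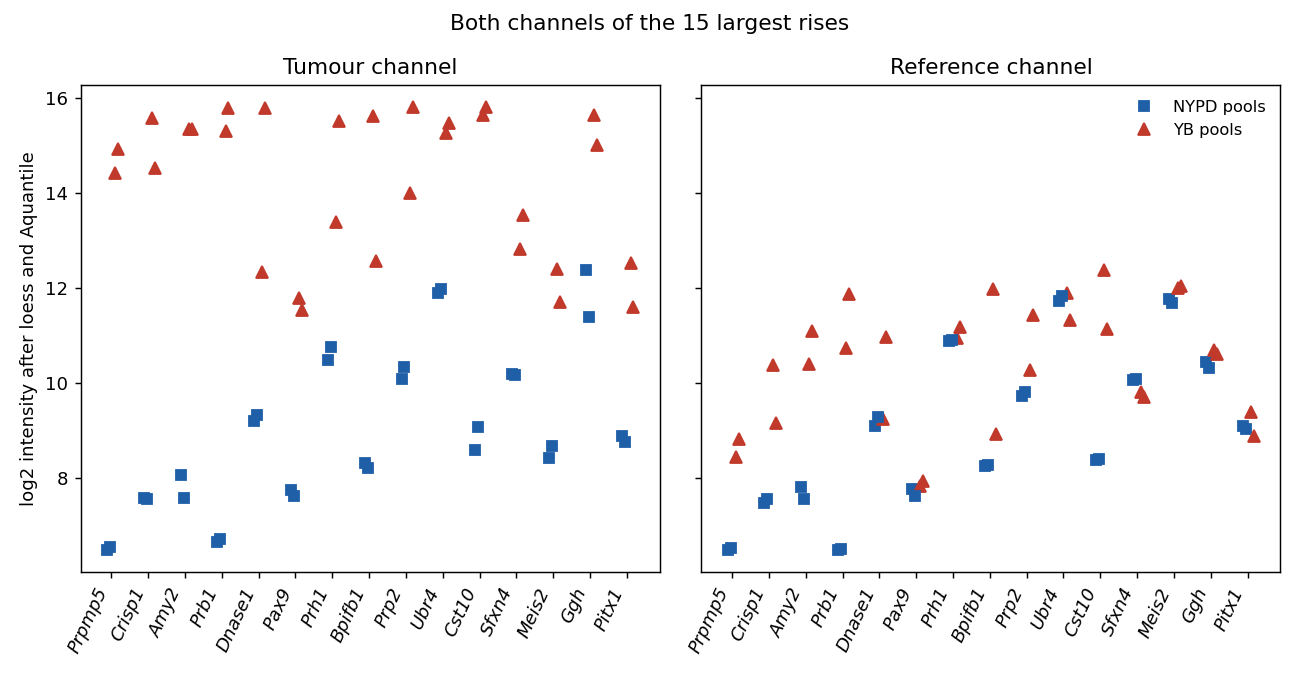
The log2 intensity of the tumour channel (left) and of the reference channel (right) for the 15 largest rises, after loess and Aquantile, in the 2 YB pools (red triangles) and the 2 NYPD pools (blue squares). Each point is the mean of 2 arrays, except for Amy2 in 1 YB pool, which has 1 array. The tumour channel is higher in YB for every gene; the reference channel is also higher in YB for Prpmp5, Crisp1, Amy2, Prb1, Bpifb1, Prp2 and Cst10, by 1.08 to 4.8.

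Transcription factors known from oral and foregut development were higher in YB in part of their list. Pax9, a paired-box factor of pharyngeal pouch and tooth, was at 3.94 and 3.59 in YB and 0 and 0 in NYPD, with the 8 other pools from -0.27 to -0.2. Its difference was 3.77 ± 0.103 (13.6-fold, adjusted p = 3.15e-06). Pitx1, a homeobox factor of the first branchial arch and the hindlimb, was at 3.14 and 2.71 against -0.21 and -0.28 (3.17 ± 0.123, adjusted p = 2.99e-05). Meis2, a cofactor of Hox and Pbx proteins, was at 0.39 and -0.34 against -3.34 and -2.98, with the other pools from -3.93 to -3.47 (3.19 ± 0.228, adjusted p = 0.000966). The YB pools thus had Meis2 near the reference level and all other pools far below it. Sox2, a factor of foregut and taste epithelium and of stem cells, was at 1.61 and 1.16 against 0.15 and -0.14 (1.38 ± 0.148, adjusted p = 0.00551). These 4 genes passed in 12 of 12 fits that left out 1 pool. Meis1 was at -0.36 and -0.5 against -0.95 and -1.06 (0.58 ± 0.118, adjusted p = 0.0355), with 1 of the other pools at -0.09, and it passed in 2 of 12 such fits. Of the 21 tested list members 5 were higher and 0 lower, beside 4.02% and 1.08% of all genes. The other 16 did not pass, and the list's median was 0.0338. Without YB pool 1, 5 members were higher and 3 lower. Barx2, Foxa1, Msx2 and Nkx2-1 differed by -0.285, -0.312, -0.202 and -0.0705, and Irx1 by 0.807 (adjusted p = 0.0914).

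The other 3 of the 15 largest rises were Ubr4, Sfxn4 and Ggh. Ggh, the gamma-glutamyl hydrolase of folate metabolism, was at 4.94 and 4.4 in YB and 1.93 and 1.06 in NYPD, with the other pools from 2.01 to 2.67 (3.17 ± 0.316, adjusted p = 0.00423). It was high in YB and, in both NYPD pools, below all others. Ubr4, an E3 ubiquitin ligase, rose by 3.58 and Sfxn4, a mitochondrial sideroflexin, by 3.29 on the brightest probe, while another probe of each differed by 0.0556 and -0.13. For these 2 genes the rise therefore belongs to 1 probe.

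Chemokines and epidermal genes added further rises. Of 26 chemokines and cytokines, 3 were higher and 0 lower, beside 4.02% and 1.08% of all genes, with a median of 0.275. The median was 0.00921 without YB pool 1 and 0.54 without YB pool 2. Ccl20, a ligand that attracts Ccr6-bearing cells, was at 3.49 and 1.89 in YB against 0.06 and 0.09 (2.61 ± 0.415, adjusted p = 0.0168), but lost its call without NYPD pool 1 or NYPD pool 2, the highest adjusted p being 0.0728. Cxcl12, a stromal ligand of Cxcr4, was at -0.94 and -0.95 against -3.07 and -3.33, with the other pools from -3.98 to -2.7 (2.26 ± 0.179, adjusted p = 0.00151). Cxcl17, a chemokine of mucosal epithelium, was at 1.59 and 2.1 against 0.39 and 0.27 (1.52 ± 0.157, adjusted p = 0.0048). Cxcl12 and Cxcl17 passed in 12 of 12 fits that left out 1 pool, and in all 3 genes the strains did not overlap. Cxcl10, an interferon-induced chemokine, was at 0.12 and 0.04 against -1.14 and -1.63 (adjusted p = 0.0866).

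Of 21 squamous genes, 3 were higher and 0 lower, beside 4.02% and 1.08% of all genes, although the median was -0.354. These counts rested on the NYPD pools: without NYPD pool 1, 2 were higher and 9 lower with a median of -0.833, and without NYPD pool 2, 2 were higher and 0 lower with a median of 0.0409. Tgm3, a transglutaminase that crosslinks the epidermal envelope, was at 2.71 and 2.54 in YB against 0.14 and 0.57 (2.27 ± 0.124, adjusted p = 0.000182), and passed in 12 of 12 fits that left out 1 pool. Sprr2a1, a small proline-rich envelope protein, was at 1.69 and 2.12 against 0.04 and 1 (adjusted p = 0.0308), and Lor, the envelope protein loricrin, at 0.66 and 1.09 against 0.18 and 0.18 (adjusted p = 0.0358). Both passed in 3 of 12 such fits. Tgm1 went the other way, at 0.23 and 0.25 against 0.83 and 1.56 (adjusted p = 0.0536), and Sprr1a was at -1.64 and -1.57 against -1.4 and 1.96, with NYPD pool 2 far above every other pool. Of 14 basal and myoepithelial genes 0 were higher and 2 lower, against the same shares, with a median of -0.316. That median was -0.526 without NYPD pool 1 and 0.0949 without NYPD pool 2. Trp63, the basal p63 factor, was at 0.43 and 1.04 against 1.59 and 1.44 (-0.78 ± 0.177, adjusted p = 0.0482), and Cdh3 differed by -0.208 (adjusted p = 0.0496). Trp63 passed in 1 of 12 fits that left out 1 pool and Cdh3 in 0. The basal keratins Krt5 and Krt14 were at 0.2 and -0.16 in NYPD pool 1 and at 1.73 and 2.01 in NYPD pool 2, so the 2 NYPD pools themselves differed there.

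The 15 largest falls were smaller than the rises and in most cases marked NYPD rather than YB. Both NYPD pools lay above the other 10 pools in 9 of them, both YB pools lay below the other 10 in 1, and in 5 neither strain stood outside. Fgfr1, a fibroblast growth factor receptor, was at -0.2 and 0.12 in YB and 1.93 and 1.9 in NYPD, with the other pools from -0.31 to 0.95. Its difference was -1.96 ± 0.164 (3.88-fold lower in YB, adjusted p = 0.00191), and it passed in 12 of 12 fits that left out 1 pool. Other Fgfr1 probes differed by 0.288, -0.933 and -1.69, so both the direction and the size differ between probes. Ggt1, the gamma-glutamyl transferase of glutathione breakdown, was at -0.1 and -0.48 against 1.02 and 1.13, with the other pools from -0.47 to 0.1 (-1.37 ± 0.124, adjusted p = 0.00297). It also passed in 12 of 12 such fits. Against the mean of NDL25, YC, YD and YE, Ggt1 was higher in NYPD by 1.25 (adjusted p = 0.00783) and differed in YB by -0.115 (adjusted p = 0.541), both contrasts sharing samples with the main one.

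**Figure D4:**
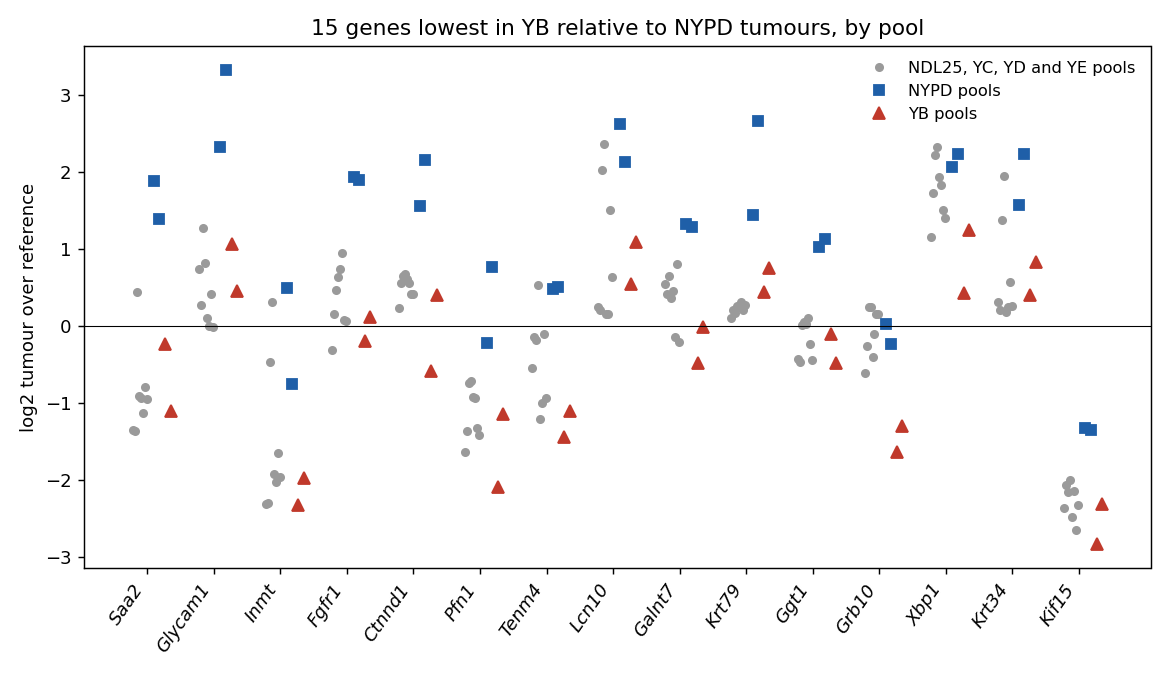
The log2 tumour over reference ratio (vertical) of the 15 largest falls (horizontal) in each of the 12 pools: red triangles are the 2 YB pools, blue squares the 2 NYPD pools and grey points the 8 other pools. In 9 genes the NYPD pools lie above all others, and in Grb10 the YB pools lie below all others.

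Acute phase and milk genes were among the falls, and their counts stand beside 4.02% higher and 1.08% lower over all genes. Saa2, an acute phase serum amyloid, was at -0.23 and -1.11 in YB and 1.88 and 1.39 in NYPD, with the other pools from -1.37 to 0.44 (-2.3 ± 0.434, 4.93-fold lower, adjusted p = 0.0273). It lost its call without either pool of NDL25, YD, YE or NYPD and without YB pool 2, with adjusted p up to 0.107. Saa1 and Saa3 were at 1.75 and 0.64 against 2.98 and 2.85 and at -1.82 and -3.24 against -0.54 and -0.67 (adjusted p = 0.162 and 0.0689). Of 16 acute phase genes, 1 was higher (Hpx, by 0.227) and 1 lower, with a median of -0.0618, and Hpx passed in 0 of 12 fits that left out 1 pool. Glycam1, a secreted mucin of lactating gland, was at 1.06 and 0.45 against 2.33 and 3.33 (-2.07 ± 0.36, 4.21-fold lower, adjusted p = 0.0213). It lost its call without YB pool 2 or NYPD pool 2, the highest adjusted p being 0.0841. Of 17 milk genes, Lpo was higher and Glycam1 lower, with a median of -0.0525. That median was -0.56 without NYPD pool 1, -0.273 and -0.886 with the first or second array of each pair, and -1.27 with the authors' deposited log ratios. The casein Csn2 varied between the YB pools, at 4.66 and 6.54, and its NYPD values were 4.7 and 6.66. In NYPD pool 1 its log2 red over green was -2.68 with tumour in Cy3 and 6.72 with tumour in Cy5, so these 2 arrays disagreed in size. In NYPD pool 2 only the array with tumour in Cy5 gave a value. The NYPD values of Csn2 therefore do not show a difference between the NYPD pools. Wap was at 2.15 and 1.01 against 2.47 and 2.85, Xdh at -0.33 and 0.08 against 1.2 and 1.14, and Lalba at 1.99 and 1.38 against 2.45 and 3.37, none of which passed (adjusted p = 0.155, 0.0625 and 0.218).

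Several of the remaining falls rested on 1 probe or on few pools. Ctnnd1, the p120 catenin, was at -0.59 and 0.4 in YB against 1.56 and 2.16 (-1.95 ± 0.309, adjusted p = 0.0165), but another probe differed by 0.00651 and the call was lost without NYPD pool 2 (adjusted p = 0.0754). Tenm4, a teneurin, fell by 1.77 while other probes differed by 0.178, 0.146 and -1.29. Galnt7, a mucin-type glycosyltransferase, fell by 1.56 with another probe at -0.303, and Kif15, a mitotic kinesin, by 1.24 with others at -0.0278 and -0.0563. Inmt, Pfn1, Lcn10, Krt79 and Krt34, an indolethylamine methyltransferase, profilin, a lipocalin and 2 keratins, fell by 2.02, 1.89, 1.56, 1.46 and 1.29. Inmt, Lcn10 and Krt34 each passed in 3 of 12 fits that left out 1 pool, Pfn1, Galnt7 and Krt79 in 2, Tenm4 in 8 and Kif15 in 10. Without NYPD pool 2 alone, 5 of the 15 falls and 14 of the 15 rises passed.

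The receptor, its relatives and its adaptors were tested as lists beside shares of 4.02% higher and 1.08% lower over all genes. Erbb2 itself was at 1.85 and 4.19 in the YB pools and 3.95 and 4.05 in the NYPD pools, a difference of -0.97 ± 0.848 (adjusted p = 0.585). YB pool 1 was low, and so was NDL25 pool 1 at 1.64 among the other strains. Other Erbb2 probes differed by 0.174 and -0.206, and which probe reads the transgene was not tested. Of 15 ErbB receptors and ligands 0 passed, with a median of 0.162. Egfr, Erbb3 and Erbb4 differed by 0.0129, 0.444 and 0.167, and the ligands Egf, Tgfa and Nrg4 by 0.895, -0.465 and 0.293. Other Erbb3 probes differed by -0.113, 0.015, -0.00757 and -0.161, and other Erbb4 probes by 0.153, 0.0344 and -0.0919. Of 23 adaptors and docking proteins, 1 was higher and 2 lower, with a median of -0.179. Grb2, the adaptor known to bind the YB site, was at -0.38 and -1.03 in YB and -0.78 and -0.57 in NYPD (-0.04 ± 0.226, adjusted p = 0.952). Sos1 and Sos2 differed by -0.366 and -0.161 (adjusted p = 0.376 and 0.22).

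Grb10, an adaptor that binds insulin and growth factor receptors, was the fall that marked YB. It was at -1.64 and -1.3 in the YB pools, 0.02 and -0.24 in the NYPD pools and -0.61 to 0.25 in the other pools (-1.35 ± 0.166, 2.55-fold lower, adjusted p = 0.00794). It passed in 12 of 12 fits that left out 1 pool, but other probes differed by 0.0375 and -0.478. Shc1, the adaptor of the Shc docking sites, was at -0.94 and -0.43 against 0.06 and 0.29 (-0.86 ± 0.178, adjusted p = 0.0365), and passed in 1 of 12 such fits. Ptpn11, the phosphatase Shp2, was higher by 0.464 on its brightest probe (adjusted p = 0.0297), with other probes at -0.0607 and -0.235, and passed in 6 of 12. Of 20 genes of ERK output, 1 was higher and 1 lower, against the same shares, with a median of -0.0827. Spry1, a feedback inhibitor, differed by -0.04 in the tumour channel and by -0.63 in the reference channel. As a ratio it was at 0.79 and 1.04 against 0.33 and 0.31, with the other pools from 0.32 to 0.45 (0.59 ± 0.0864, adjusted p = 0.0131). It lost its call without NYPD pool 2 (adjusted p = 0.0595). Myc was at -1.48 and -1.34 against -0.37 and -0.78 (-0.83 ± 0.188, adjusted p = 0.0477) and passed in 0 of 12 fits that left out 1 pool. Dusp6, the ERK phosphatase, was at 1.81 and 1.95 against 1.32 and 0.6 (adjusted p = 0.122), and Etv5 at -0.44 and 1.78 against 1.99 and 2.13 (adjusted p = 0.332).

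Of 26 proliferation genes 2 were lower in YB and 0 higher, beside 1.08% and 4.02% of all genes. All 26 had differences below 0, as did 49.5% of all genes, from -0.821 to -0.00316, with a median of -0.32. Ttk, a spindle checkpoint kinase, was at -1.79 and -1.72 in YB and -0.96 and -0.91 in NYPD, with the other pools from -1.54 to -0.98 (-0.82 ± 0.13, adjusted p = 0.0166). Ccnb1, cyclin B1, was at -1.51 and -1.56 against -0.75 and -0.81, with the other pools from -1.57 to -0.88 (-0.75 ± 0.132, adjusted p = 0.0215). In the tumour channel Ttk differed by -0.37 and Ccnb1 by -0.62, and in the reference channel by 0.45 and 0.13. Aurkb, Ccna2, Kif11 and Cdc20 differed by -0.42, -0.46, -0.23 and -0.41 in the tumour channel. Their reference differences were 0.23, 0.09, 0.37 and 0.05, so part of these ratio differences lay in the reference channel. Ttk and Ccnb1 each lost the call without YB pool 2, NYPD pool 1 or NYPD pool 2. Lipid synthesis had 0 higher and 2 lower of 22, with a median of -0.234. Acly, which makes cytosolic acetyl-CoA, was at -0.16 and 0.08 against 0.94 and 0.71 (-0.87 ± 0.17, adjusted p = 0.0306), and Srebf1, the lipogenic regulator, at 2.35 and 2.11 against 3.23 and 2.9 (adjusted p = 0.045). Acly passed in 4 and Srebf1 in 0 of 12 fits that left out 1 pool. Scd1, a desaturase, was at 0.97 and 2.3 against 3.38 and 3.1 (adjusted p = 0.0925).

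Stress genes moved in opposite ways. Asns, asparagine synthetase, was at 0.1 and 0.61 in YB against -1.17 and -1.78, with the other pools from -2.11 to -0.82 (1.83 ± 0.245, 3.55-fold, adjusted p = 0.0102), and passed in 12 of 12 fits that left out 1 pool. Xbp1, a factor of the unfolded protein response that is also high in secretory and plasma cells, was at 0.43 and 1.24 against 2.07 and 2.24 (-1.32 ± 0.262, adjusted p = 0.0315). It passed in 3 of 12 such fits, and the 18 genes of the ER stress list had a median of -0.298. Chac1 and Trib3 differed by -0.537 and -0.479 (adjusted p = 0.0723 and 0.225). Of 26 Wnt pathway genes 2 were higher and 0 lower, beside 4.02% and 1.08% of all genes, with a median of -0.0271. Fzd1, a Wnt receptor, was at 1.37 and 1.01 against 0.22 and 0.1, with the other pools from -0.55 to 0.24 (1.03 ± 0.136, adjusted p = 0.0102), and lost its call without NYPD pool 2 (adjusted p = 0.0548). Fzd4 was higher by 0.445 (adjusted p = 0.0392) and passed in 3 of 12. Axin2, a Wnt target, was at -1.92 and -2.38 against -1.67 and 1.12, with NYPD pool 2 again apart.

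Markers of other cell types were read against shares of 4.02% higher and 1.08% lower over all genes. Among 18 endothelial genes 2 were higher, with a median of 0.178 (-0.139 with the authors' deposited log ratios). Robo4 was at 1.72 and 1.6 against 0.87 and 0.92 (adjusted p = 0.0285) and Emcn at 2.51 and 2.31 against 1.88 and 1.5 (adjusted p = 0.0359). They passed in 2 and 1 of 12 fits that left out 1 pool, while Pecam1 differed by -0.542 (adjusted p = 0.0908). Among 14 adipocyte genes Plin1, the lipid droplet coat, was higher by 0.379 (adjusted p = 0.021), a call lost without YB pool 2 or NYPD pool 1 (highest adjusted p 0.0729), and the summed log2 ratio of Adipoq, Plin1 and Fabp4 was 5.57 and 4.91 in YB against 4.4 and 3.98. Among 12 B and plasma cell genes 2 were lower, Xbp1 and Ms4a1, the latter by 0.858 (adjusted p = 0.0336), which passed in 1 of 12 such fits. Of 17 luminal genes Krt7 was higher by 0.563 (adjusted p = 0.0475) and passed in 0 of 12. In 11 lists no member passed, and their medians ran from -0.214 to 0.224. Several of these turned with 1 pool. The macrophage list had 2 lower genes and a median of -0.093 without YB pool 1, and 3 higher and a median of 0.607 without YB pool 2. The fibroblast and matrix median was -0.398 and 0.391 in these fits. Its summed log2 ratio was -5.54 and -22 in the YB pools and -9.15 and -15.8 in the NYPD pools, and that of the macrophage list 26.4 and 16.2 against 18.2 and 18.7, so the YB pools lay further apart than the strains. Leaving out NYPD pool 1 or pool 2 gave interferon medians of 0.536 or -0.161 and muscle medians of -0.111 or 0.652. The 11 lists were the fibroblast and matrix, mesenchymal, macrophage, granulocyte, T cell, skeletal muscle, interferon, antigen presentation, ErbB, hypoxia and protease lists. The neutrophil gene S100a8 was at 1.59 and -0.5 in YB and -0.36 and 3.24 in NYPD, so each strain had 1 high pool. Mmp12, a macrophage elastase, was at 0.61 and 0.81 against 1.81 and 3.42 (adjusted p = 0.075), and Mmp9 differed by -0.762 (adjusted p = 0.079).

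**Figure D5:**
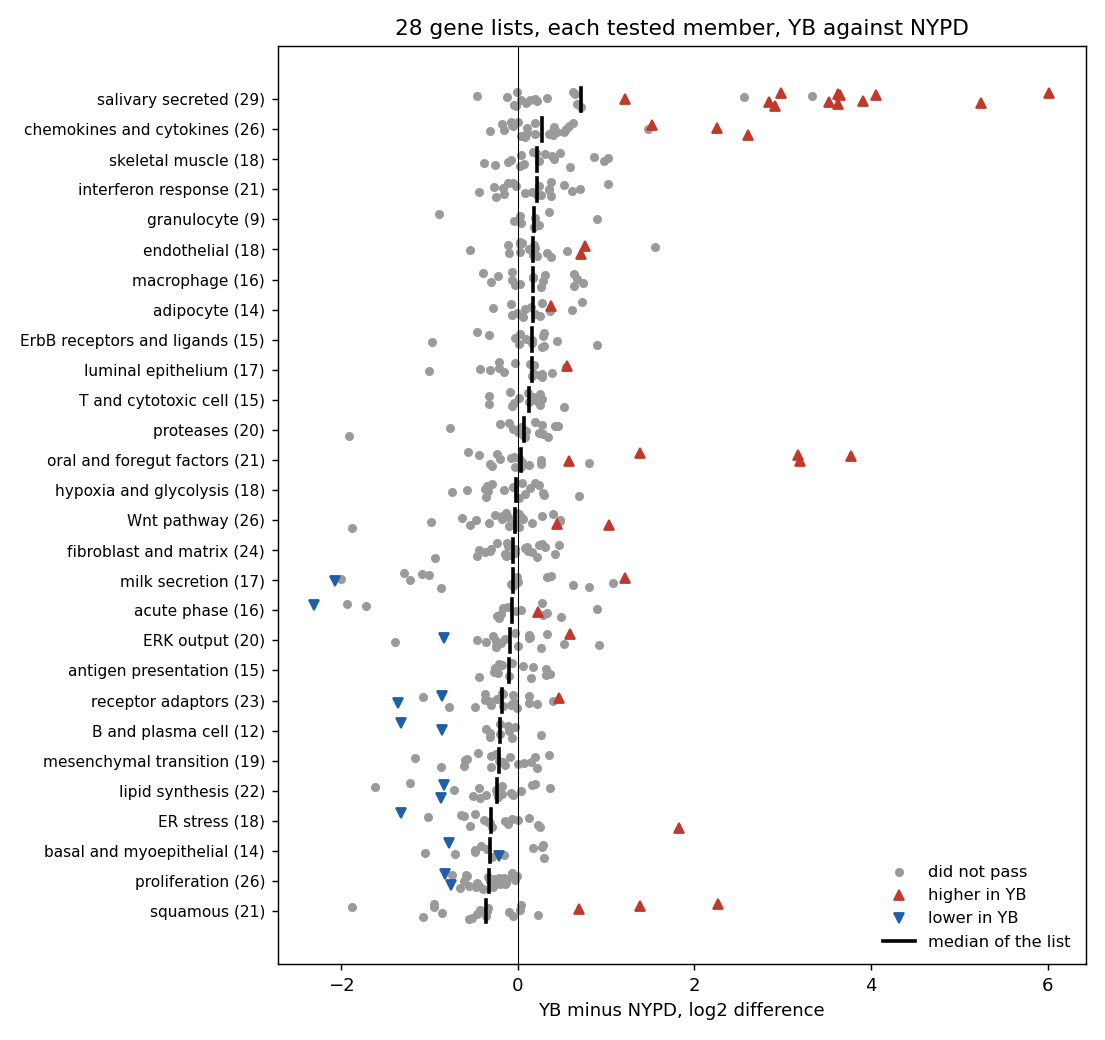
The YB minus NYPD log2 difference (horizontal) of every tested member of 28 gene lists (rows, with the number tested, ordered by median); black bars are medians, red triangles passed as higher, blue inverted triangles as lower and grey points did not pass. The salivary list has the highest median, 0.713, and 12 members past the test; the proliferation list lies wholly below 0.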

How the data were processed

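Mean, local background and processed intensities of both channels of 24 arrays came from Agilent Feature Extraction, per the file headers. A log ratio was also deposited by the authors for each pool, read here as log2 although its base is not stated, which correlated with the scanner ratios at r = 0.983 to 0.988. Tools named in the submitters' processing notes are R 2.3.0, limma and RMA. The labels do not give each channel's dye, so the tumour channel was identified on every array by marker genes (Csn2 and Lalba for tumour, Afp for reference). Intensities were corrected by normexp (offset 50) and normalised by loess in limma 3.58.1 (R 4.3.3, data.table version 1.17.8). Outlier spots were left out, dye-swap pairs averaged, probes well above background on fewer than 4 arrays dropped, and the brightest probe kept per gene, which left 28691 of 41174 probes. A limma model with a mean per strain was fitted to 12 pools (6 residual and 1.76 prior degrees of freedom), with Benjamini-Hochberg adjustment over all genes. SE is the moderated standard error, with 1 spread per gene for all 6 strains. Some rises varied more between YB pools than elsewhere. Dnase1, Prh1 and Cst10 had standard deviations of 1.22, 1.34 and 1.01 between YB pools and 0.0411, 0.192 and 0.321 between NYPD pools. Their SE of 0.442, 0.491 and 0.411 therefore understates the spread within YB.

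The strains compared, the lists and the naming rule were chosen with earlier results of these data known. The rule takes the 15 largest rises and falls among genes that passed, differed by a log2 of 1 or more, did not overlap between strains, were above background and had an ordinary symbol. It adds Erbb2 and up to 6 members of each of 28 lists. Values of other list members were picked to describe their list. In a simulation over 28691 genes, 100 genes were changed by a log2 of 1 and 100 by 2. The fit called 67 and 91 of them, and 13 unchanged genes. The simulated pools were independent and normal, with 1 spread per gene for all strains and no session effect. These counts therefore hold under the assumptions of the fit and do not give its error rate in the data. Promoters were aligned with Biopython 1.88. Alternatives are in the closing section.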

Additional observations from a re-analysis of the deposited data

How the results depend on the processing

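The 1463 genes of YB minus NYPD became 794 with median centring in place of loess, 897 with the authors' deposited log ratios, 513 and 688 with the first or second array of each pair, and 4 with the YB and NYPD pools alone. With the image-analysis session as a random block, each pool taking the session of its first array, they became 2434. The 2 arrays of YC pool 2 were in different sessions. The estimated correlation within a session was -0.119, and a fixed session block could not be fitted for this contrast, as the NYPD session holds no other strain. The share of higher genes among those called was 78.8%, and 57.1% without NYPD pool 1. The counts under the other alternatives, among them no background correction (1726), the scanner's processed intensity (1307) and pools 1 of NDL25 and YB left out (1402, of which 896 shared), stayed within 1.5 times. Leaving out each pool in turn gave 397 to 1818 genes. A strain left with 1 pool is assumed to vary like the others, and every such fit has fewer residual degrees of freedom. For YB minus the mean of NDL25, YC, YD and YE (1962 genes) it gave 1214 to 1998, and for NYPD minus that mean (430 genes) 92 to 821. That last count was 247 with median centring and 722 with the replicate block. Pool numbers were not taken as pairing the samples: the deviations of same-numbered pools of YB and NYPD correlated at 0.0533, and across strains at -0.172 to 0.708, over 0.1 in 7 of 15 strain pairs. With the number as a replicate block YB minus NYPD had 1554 genes. Among the named genes Krt7, Trp63, Cdh3, Srebf1 and Fzd4 then missed the threshold (adjusted p 0.058, 0.0614, 0.0646, 0.0577 and 0.0544), and Xdh and Saa3 passed (0.0453 and 0.0364). No named gene with a call changed its sign under the alternatives. Over 29 alternatives the median of the salivary list ran from 0.18 to 1.62 and that of the proliferation list from -0.411 to -0.0561. Of the named rises 12 had a deposited value and all 12 passed. The number of the 15 named falls that passed ran from 5 to 15, except with the 4 pools alone, where 3 rises and 0 falls passed. The number of pools limits the precision.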
